A study of Drosophila melanogaster with 82 samples.

Results

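The diet response of the fat body was set against that of the gut in adult female Drosophila melanogaster, as the difference between the DR minus AL change in fat body and the DR minus AL change in gut. The comparison uses 24 of the 82 arrays of the series, chosen by their labels for tissue and food, with 6 arrays in each of 4 groups: fat body DR, fat body AL, gut DR and gut AL. DR food held 0.5% yeast extract and AL food 5%. Flies grew up on stock food, were moved to their food soon after eclosion, stayed on it for 10 days and were collected at an age of 13 days. Each of the 24 arrays holds messages from 1 pool of about 100 whole flies, so a replicate is a separate pool.

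All 4 groups carried UAS-RpL13A-His6FLAG, a tagged protein of the large ribosomal subunit, and messages bound to tagged ribosomes were pulled down from lysate of whole flies with FLAG beads. The fat body line had the driver S106-GS-GAL4 and the gut line the driver MYOIA-GAL4, named after a myosin gene used as an enterocyte driver. S106 is a GeneSwitch driver, a form of GAL4 that acts when an inducing steroid is fed, and no inducer is named in the sources used here. It is known for activity in the abdominal fat body and in parts of the digestive tract. With 1 line per tissue, tissue and line cannot be told apart, and in such pulldowns fewer cells of a type cannot be told apart from less message per cell.

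The fat body is the fly's counterpart of liver and adipose tissue. It stores fat and glycogen, makes blood proteins and yolk, and senses amino acids through the kinase complex TORC1. Enterocytes are the absorptive cells of the gut, which secrete digestive enzymes and take up the products. Dietary restriction, here a cut in yeast extract, is a standard way to lengthen fly lifespan and lowers insulin and TOR signalling in many settings.

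Levels are log2 of the deposited probe intensities, averaged over the probes of a transcript (8 for 16616 of 16637 transcripts). Changes are DR minus AL on the log2 scale, and the difference between the tissues is fat body change minus gut change, so that a positive one means a higher DR minus AL value in fat body. A transcript passed where limma's adjusted p, taken over all 16637 transcripts, was under 0.05. It is called separated where every DR pool lay above, or every one below, every AL pool. Background is the 95th percentile of the 4100 random-sequence control probes of an array. By that measure 10723 transcripts were detected in fat body and 11854 in gut, on at least 6 of the 12 arrays of the tissue.

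Gut DR was the most uneven of the 4 groups. On the leading axis of variation within groups, which carries 29.2% of that variance, gut DR pools 1, 2 and 6 scored between -35.3 and -16.3 and pools 3, 4 and 5 between 21.3 and 36.6. Fat body DR pool 6 also stood apart from its group, at 37.8. Results that change without these pools are given with and without them. The rise of signal with probe position along the transcript is a measure of how far from the transcript's start the signal lies. In fat body it was 0.407 ± 0.009 on DR and 0.387 ± 0.012 on AL (SD, n = 6). An exact permutation test gave p = 0.00649 and an adjusted p of 0.0584. In gut it was 0.490 ± 0.022 on DR and 0.462 ± 0.023 on AL (SD, n = 6). There the same exact test gave p = 0.0584 and an adjusted p of 0.131. The difference between the tissues in that change was -0.0081 (exact permutation test, p = 0.644, adjusted p = 0.724). The part of this measure in the results was not tested beyond a fit with it as a covariate.

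The response was in part common to both tissues. In fat body 7370 transcripts passed (44.3% of those tested), 4065 higher on DR (24.4%) and 3305 lower (19.9%), and in gut 7195 passed (43.2%), 3630 higher (21.8%) and 3565 lower (21.4%). Of the 4517 that passed in both, 3974 (23.9% of all tested) moved in the same direction, 2132 up and 1842 down. That is 53.9% of the fat body calls, 55.2% of the gut calls, 88.0% of the transcripts called in both and 39.6% of the 10048 called in at least 1 tissue. Counting only changes of at least 2-fold, 465 were shared, of 1314 calls in fat body and 844 in gut. The median change of the shared rises was 0.65 in fat body and 0.56 in gut, and that of the shared falls was -0.65 in fat body and -0.61 in gut. Separated pools were found for 26.8% of all transcripts in fat body and 20.8% in gut, and for 1675 transcripts (10.1%) in the same direction in both.

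Sharing direction was not the same as equal size. The difference passed for 628 of the 3974 shared transcripts, with the larger change in fat body for 454 of them and in gut for 174. For the other 3346 it did not pass, which does not show equal responses. The 95% interval of the difference lay within 2-fold either way for 3399 of the shared transcripts (85.5%), against 13535 (81.4%) of all transcripts. Across all transcripts the fat body and gut changes correlated at a Pearson r of 0.621 and a Spearman rho of 0.572, as a description, since transcripts on an array share its labelling and scaling. The mean of both changes passed for 8805 transcripts (52.9%), and for 2377 of them the difference passed too. A mean can pass where only 1 tissue changed, so this count is not one of shared responses.

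The tissue difference passed for 3576 transcripts (21.5% of those tested). Of these, 2053 (12.3%) had the higher DR minus AL value in fat body, with a median of 0.56, and 1523 (9.15%) had the higher value in gut, with a median of -0.65. At least 2-fold differences numbered 293 toward fat body and 358 toward gut, and at least 4-fold ones 23 and 87. The median SE of a difference was 0.189. Without gut DR pools 1 and 2 the difference passed for 3291 transcripts, of which 2982 were among the 3576. A model of all 82 arrays passed 2341, of which 2247 were among the 3576.

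By kind, 1426 of the 3576 passed in fat body and not in gut (805 up, 621 down), and 409 rises and 515 falls passed in gut and not in fat body. A further 628 changed in the same direction by unequal amounts, 55 passed in neither tissue alone, and 543 (3.26% of all tested) passed in both with opposite signs. The opposite group held 343 that rose in fat body and fell in gut and 200 that fell in fat body and rose in gut. The difference passed for all 543. Opposite changes that pass with the same SE in both tissues add up in the difference, so this count follows from those calls. It is not separate support for a tissue difference. In 140 of all transcripts (0.841%) the pools of both tissues were separated in opposite directions, 89 with the rise in fat body and 51 with the rise in gut. Another 1427 transcripts passed in fat body alone and 1754 in gut alone without a called difference, so a call in 1 tissue is not by itself a tissue difference.

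**Figure D1:**
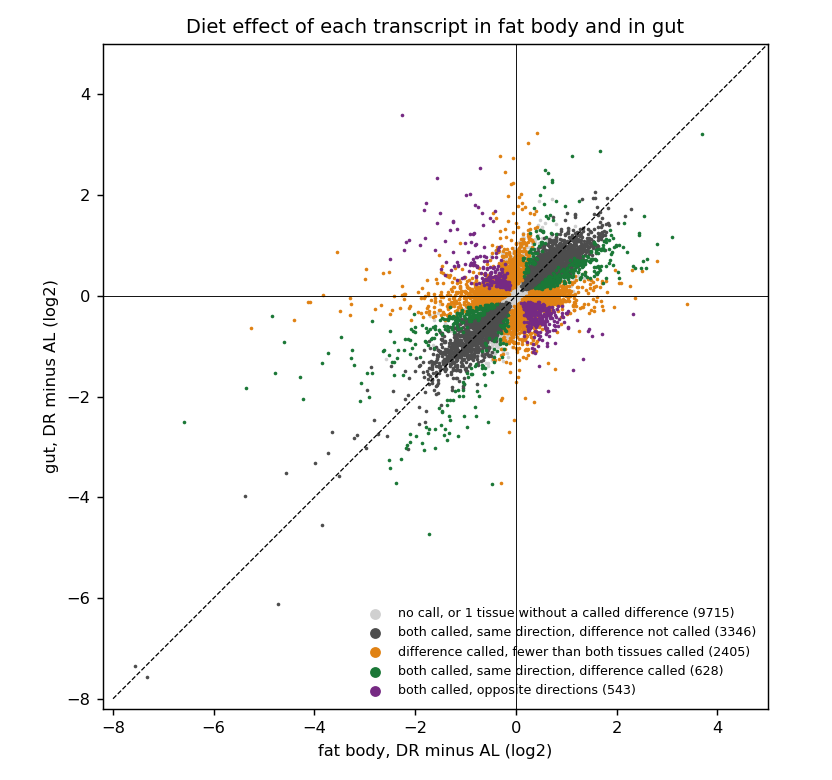
Each point is 1 of 16637 transcripts, with its DR minus AL change in fat body on the x axis and in gut on the y axis, both log2. The dashed line marks equal changes, the 3346 grey-black points along it passed in both tissues without a called difference, and the 543 purple points passed with opposite signs.

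Bright transcripts passed more often than dim ones. The share that passed was 1.20% among the dimmest 1664 transcripts by mean level and 39.7% among the brightest 1664. Most calls came from transcripts detected in both tissues, 1864 of the 2053 higher and 1328 of the 1523 lower ones. In 57 higher and 88 lower calls the transcript was detected in neither tissue by the rule, although it may have been above background on some arrays. All 8 probes gave the sign of the difference for 85.2% of the called transcripts and for 95.4% of the opposite ones. Of those not called it was 15.0%. The tested difference is the mean over these same probes, so this contrast follows in part from the call and is not separate support.

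Gene names are sparse on this platform as used here: 14 transcripts have a symbol, and all 14 are described. In fat body 6 of them rose and 2 fell (57.1%, beside 44.3% of all transcripts), and in gut 2 rose and 3 fell (35.7%, beside 43.2%). The tissue difference passed for 4, all with the higher value in fat body, which is 28.6% of the 14 beside 21.5% of all transcripts. The gene lists used below were chosen with earlier results of these data known. Counts within them are therefore not results about pathways.

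Both named genes of the insulin and TOR list, which had 16 entries, rose on DR in fat body, and neither passed in gut. Their products, Mio and Wdr24, are subunits of GATOR2, a complex that relays amino acid supply to TORC1 at the lysosome. The level of mio (FBtr0077835) ran from 11.79 to 12.07 with a median of 11.92 in fat body DR, against 10.82 to 11.32 with a median of 11.13 in fat body AL. In gut its level ran from 11.53 to 11.72 (median 11.57) on DR and from 11.46 to 11.61 (median 11.57) on AL. The fat body pools were separated and the gut pools overlapped. The change was 0.82 (SE 0.07; 1.76-fold; adjusted p = 1.62e-09) in fat body and 0.03 (SE 0.07; adjusted p = 0.724) in gut, and the difference was 0.78 (95% interval 0.59 to 0.98; limma, adjusted p = 2.25e-06). All 8 mio probes gave the sign of this difference, with values from 0.61 to 1.15.

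Wdr24 (FBtr0085543) ran from 11.14 to 11.45 (median 11.30) in fat body DR and from 10.74 to 11.02 (median 10.88) in fat body AL, with the pools separated. The gut pools ran from 10.50 to 11.14 (median 10.99) on DR and from 10.90 to 11.28 (median 11.18) on AL, where the pools overlapped. The change was 0.40 (SE 0.10; adjusted p = 0.00177) in fat body and -0.22 (SE 0.10; adjusted p = 0.0703) in gut. The difference of 0.63 passed (SE 0.14; adjusted p = 0.00193), and all 8 probes had its sign. The gut value passed as a fall without gut AL pool 1 or 2 or gut DR pool 3, 4 or 5, with values from -0.27 to -0.26 and adjusted p from 0.0312 to 0.048, and in a fit with the pool number as a block (adjusted p = 0.0491).

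Of the lipid list, with 10 entries, only Fatp1 has a name here. It encodes a fatty acid transport protein that takes long-chain fatty acids into cells and activates them. Fatp1 (FBtr0080133) ran from 13.76 to 14.15 (median 14.02) in fat body DR, above every fat body AL pool at 13.27 to 13.53 (median 13.38). Gut levels ran from 13.18 to 13.55 (median 13.34) on DR and from 13.26 to 13.45 (median 13.30) on AL. The pools were separated in fat body and overlapped in gut. Fatp1 rose by 0.59 in fat body (SE 0.07; 1.5-fold; adjusted p = 6.77e-07) and had a value of 0.02 in gut (adjusted p = 0.84), a difference of 0.57 (SE 0.10; adjusted p = 0.000286). In the model of all 82 arrays the difference missed the threshold (adjusted p = 0.0738).

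The basement membrane and membrane skeleton list, with 8 entries, has 2 named members, and both rose in both tissues. LanA is an alpha chain of laminin, a protein of basement membranes. It ran from 11.17 to 12.001 (median 11.40) in fat body DR, against 9.83 to 10.27 (median 10.09) in fat body AL. In gut LanA (FBtr0077014) ran from 10.99 to 12.13 (median 11.64) on DR and from 10.35 to 11.35 (median 10.68) on AL. The pools were separated in fat body and overlapped in gut. It rose 2.62-fold in fat body (1.39, SE 0.18; adjusted p = 8.89e-07) and 1.82-fold in gut (0.87, SE 0.18; adjusted p = 0.000423), and the difference of 0.52 did not pass (95% interval 0.01 to 1.04; adjusted p = 0.148).

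The other member, alpha-Spec (FBtr0072789), encodes alpha spectrin, which lines the inner face of the cell membrane. Its level ran from 12.11 to 12.45 (median 12.29) in fat body DR and from 11.36 to 11.87 (median 11.51) in fat body AL. Its gut levels ran from 12.64 to 13.09 (median 12.90) on DR and from 12.17 to 12.51 (median 12.30) on AL. It was the 1 named gene with separated pools in both tissues. The rise was 0.74 (SE 0.09; adjusted p = 3.07e-07) in fat body and 0.55 (SE 0.09; adjusted p = 2.84e-05) in gut, and the difference was 0.19 (95% interval -0.06 to 0.45; adjusted p = 0.313). Without the pool farthest from the rest in each group it was 0.34 and passed (adjusted p = 0.0295).

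The chromatin list, with 5 entries, has 4 named members, and they did not move as a group. HDAC3, a histone deacetylase that removes acetyl groups as part of a corepressor complex, fell in both tissues. HDAC3 (FBtr0078767) ran from 10.28 to 10.59 (median 10.48) in fat body DR and from 10.76 to 10.95 (median 10.80) in fat body AL. In gut its level ran from 10.80 to 11.20 (median 11.03) on DR and from 11.18 to 11.35 (median 11.24) on AL. The pools were separated in fat body only. The change was -0.37 (SE 0.07; adjusted p = 0.000242) in fat body and -0.23 (SE 0.07; adjusted p = 0.0168) in gut, with a difference of -0.15 (95% interval -0.36 to 0.07; adjusted p = 0.38). The gut call ended without gut DR pool 1 (-0.18, adjusted p = 0.0526) and in the model of all 82 arrays (adjusted p = 0.0727).

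SuUR, a chromatin protein that holds back replication of heterochromatin in polytene cells, fell in gut. Its levels overlapped between foods in both tissues, from 11.22 to 11.62 (median 11.37) in fat body DR against 11.11 to 11.60 (median 11.35) in fat body AL, and from 11.07 to 11.85 (median 11.53) in gut DR against 11.67 to 12.05 (median 11.83) in gut AL. The change of SuUR (FBtr0076203) was 0.02 (SE 0.11; adjusted p = 0.928) in fat body and -0.35 (SE 0.11; adjusted p = 0.0114) in gut. The difference of 0.37 missed the threshold (95% interval 0.05 to 0.69; adjusted p = 0.0959), and it passed without gut DR pool 4 (0.44, adjusted p = 0.036). The gut fall ended without gut DR pools 1 and 2 (-0.20, adjusted p = 0.121), and with the later 4 probes of the transcript (-0.22, adjusted p = 0.236).

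His4r encodes histone H4 outside the replication-dependent histone cluster, and near-identical gene copies encode the same protein, so its value is uncertain. Its level was 14.78 to 14.94 in fat body DR, 14.43 to 14.71 in fat body AL, 14.80 to 14.92 in gut DR and 14.69 to 14.86 in gut AL. His4r (FBtr0082962) rose in fat body by 0.31 (SE 0.05; adjusted p = 3.12e-05), with separated pools, and was at 0.10 in gut (SE 0.05; adjusted p = 0.109). The difference of 0.20 passed narrowly (SE 0.07; adjusted p = 0.0464). It missed the threshold without any 1 of 17 of the 24 pools, at 0.18 to 0.21 and adjusted p from 0.0534 to 0.0887. The pools whose removal left the call in place were fat body DR 2 and 3, fat body AL 4, gut DR 2 and 4, and gut AL 3 and 5. The chromatin remodeller gene kis passed in neither tissue, at 0.12 in fat body (adjusted p = 0.164) and 0.10 in gut (adjusted p = 0.258). With array weights its gut value was 0.17 and passed (adjusted p = 0.0322).

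Neither named gene of the ubiquitin list, with 3 entries, passed in either tissue. Uba1, the enzyme that activates ubiquitin, was at -0.03 (adjusted p = 0.719) in fat body and 0.01 (adjusted p = 0.871) in gut, with a 95% interval of the difference from -0.23 to 0.13. For rdx, an adaptor of a Cullin-3 ubiquitin ligase, the changes were -0.22 (adjusted p = 0.228) and -0.18 (adjusted p = 0.306) in fat body and gut, and its 95% interval of the difference ran from -0.44 to 0.37.

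The other 3 named genes belong to none of the lists. The gene fend, known from motor axon guidance in the fly, fell in both tissues. Its level ran from 8.89 to 10.00 (median 9.41) in fat body DR and from 10.03 to 10.63 (median 10.14) in fat body AL, which were separated. In gut fend (FBtr0071349) ran from 9.42 to 10.43 (median 10.00) on DR and from 10.31 to 10.98 (median 10.56) on AL, where DR pools 1, 2 and 6 lay below every AL pool and the other 3 among them. The change was -0.82 (SE 0.19; adjusted p = 0.00102) in fat body and -0.62 (SE 0.19; adjusted p = 0.0103) in gut, and the difference was -0.20 (95% interval -0.75 to 0.36; adjusted p = 0.682). Without gut DR pools 1 and 2 the gut fall was -0.38 and did not pass (adjusted p = 0.114).

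For sle, a gene that acts on the structure of the nucleolus in neural precursors, neither tissue passed alone, at -0.54 (adjusted p = 0.0755) in fat body and -0.55 (adjusted p = 0.0712) in gut. The mean of both was -0.54 and passed (SE 0.17; adjusted p = 0.00992). The difference was 0.01, with a 95% interval from -0.70 to 0.71. The fat body value passed without fat body DR pool 6 (-0.70, adjusted p = 0.0173) or without gut DR pool 2 (adjusted p = 0.0473), and the gut value without gut AL pool 2, without gut DR pool 3, 4 or 5 (-0.67 to -0.64, adjusted p from 0.0268 to 0.0443), or without fat body DR pool 6 (adjusted p = 0.0499). Both values passed in the model of all 82 arrays (adjusted p = 0.0332 in fat body and 0.0323 in gut) and with the position slope as a covariate, at -0.77 in fat body (adjusted p = 0.0113) and -0.88 in gut (adjusted p = 0.00921). The fat body value of sle also passed with the later 4 probes, with array weights, without the farthest pools and without gut DR pools 1 and 2 (-0.73 to -0.54, adjusted p from 0.00327 to 0.0472). The phosphate transporter gene NaPi-III was at -0.41 (adjusted p = 0.222) in fat body and -0.09 (adjusted p = 0.814) in gut. Without fat body DR pool 6, at 12.63 the highest of its group, the fat body value was -0.64 and passed (adjusted p = 0.0307), as it did with array weights (-0.56, adjusted p = 0.0144) and without the pool farthest from the rest in each group (-0.70, adjusted p = 0.00804).

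**Figure D2:**
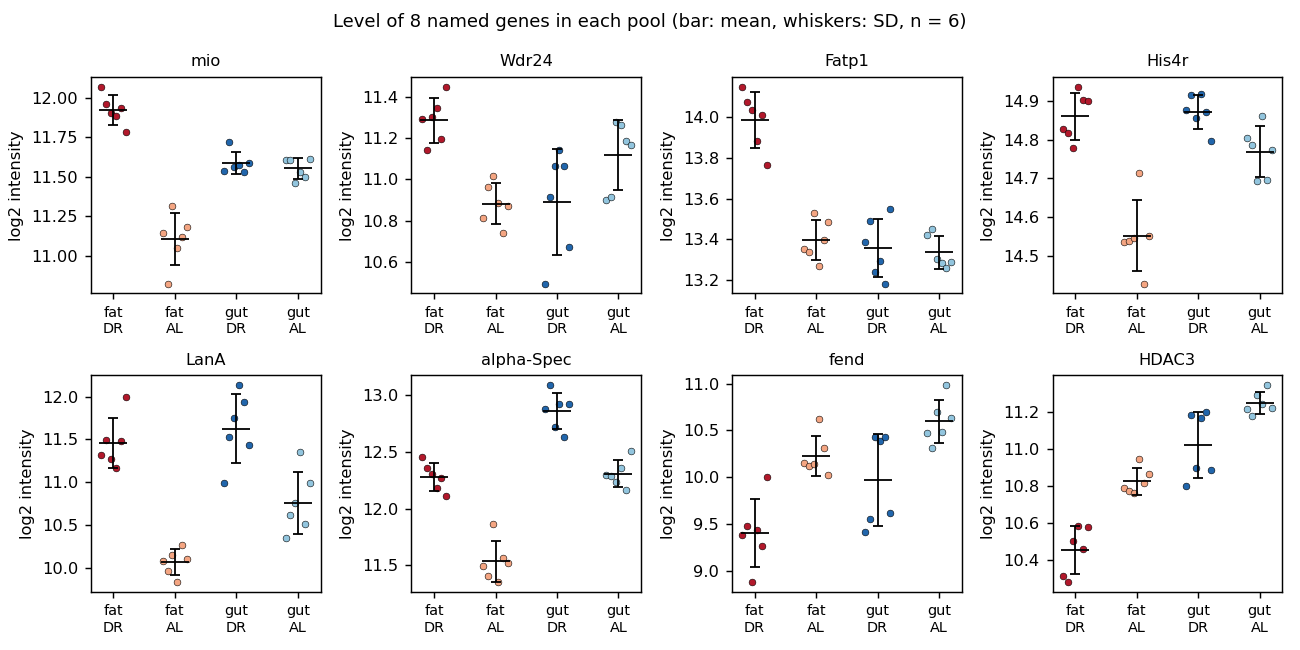
Levels (log2 intensity) of 8 named genes in each pool, with fat body DR, fat body AL, gut DR and gut AL from left to right and the bar and whiskers at the mean and SD of 6 pools. For mio and Fatp1 the fat body DR pools lie above the fat body AL pools and the gut groups overlap, whereas alpha-Spec is separated by food in both tissues.

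Among the transcripts without a name, a fixed rule took the largest changes with separated pools. The largest shared falls were those of FBtr0089326 and FBtr0089324. In fat body FBtr0089326 ran from 6.34 to 7.61 (median 6.90) on DR, above background on 3 of 6 arrays, against 14.34 to 14.72 (median 14.57) on AL. The gut pools ran from 5.51 to 6.28 (median 5.79) on DR, above background on none, against 13.14 to 13.35 (median 13.22) on AL. Both DR means lay below background, and the fall was at least 147-fold in fat body (adjusted p = 3.27e-20) and at least 64.4-fold in gut. FBtr0089324 had its DR means below background too, in fat body with 3 of 6 arrays above it, and fell at least 157-fold in fat body (adjusted p = 6.11e-21) and at least 80.5-fold in gut, with 14.43 to 14.84 in fat body AL and 13.43 to 13.62 in gut AL. These bounds rest on the background of the DR arrays, and the differences between the tissues, -0.21 and 0.24, did not pass. With the DR means below background these differences were not measured on both sides. That of FBtr0089324 passed under quantile normalization over both tissues (0.64, adjusted p = 0.0274) and with the median of its probes (0.86, adjusted p = 0.0147), and had the other sign, -0.13, after a normexp background correction.

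FBtr0082158 had the largest shared rise. It ran from 14.38 to 14.53 (median 14.47) in fat body DR and from 10.57 to 11.10 (median 10.75) in fat body AL, and from 13.24 to 13.69 (median 13.39) in gut DR and from 9.92 to 10.51 (median 10.16) in gut AL. The rise was 12.9-fold in fat body (3.69, SE 0.10; adjusted p = 2.47e-18) and 9.32-fold in gut (3.22, SE 0.10; adjusted p = 5.04e-17). The difference of 0.47 passed (SE 0.14; adjusted p = 0.0153). It ended when both tissues were put on 1 intensity distribution (0.15, adjusted p = 0.527) and in the model of all 82 arrays. FBtr0087522, which led in tubule by level, rose in both tissues too, with the larger rise in gut. It ran from 13.31 to 13.64 on DR against 11.61 to 11.98 on AL in fat body. In gut it ran from 12.44 to 13.17 on DR against 9.76 to 10.37 on AL. Its changes were 1.67 (SE 0.12) in fat body and 2.87 (SE 0.12) in gut, a difference of -1.19 (SE 0.17; adjusted p = 1.94e-05).

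FBtr0072868 had the largest difference toward fat body. In fat body it ran from 12.78 to 13.30 (median 12.95) on DR against 9.33 to 10.29 (median 9.43) on AL, with the pools separated. Gut levels ran from 7.63 to 8.25 (median 7.84) on DR and from 7.72 to 8.33 (median 8.10) on AL, which overlapped, all above background. The rise in fat body was 10.5-fold (3.40, SE 0.16; adjusted p = 1.43e-13), the gut change -0.16 (SE 0.16; adjusted p = 0.427) and the difference 3.56 (95% interval 3.10 to 4.02; adjusted p = 1.84e-10). In the other tissues, in the model of all 82 arrays, FBtr0072868 rose in each, by 0.57 in muscle to 1.40 in neuron.

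FBtr0077753 came next, at 3.42 (SE 0.37; adjusted p = 4.41e-07). It was below background on every fat body array of both foods, so no fat body change can be given. Its gut levels ran from 5.26 to 7.09 (median 6.18) on DR, below background on every array, against 8.98 to 10.51 (median 9.84) on AL, a fall of at least 5.94-fold. The size of the tissue difference of this transcript therefore has no measured fat body side.

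The largest differences toward gut were those of FBtr0082625 and FBtr0087720. FBtr0082625, which also led in gut by level, ran from 5.80 to 6.76 (median 6.43) in fat body DR, below background on every array, against 6.50 to 9.37 (median 9.14) in fat body AL, above background on 5 of 6. The fat body fall was at least 2.47-fold, and fat body AL pool 3 lay among the DR pools. Its gut levels were 11.91 to 13.22 (median 12.53) on DR, against 8.11 to 9.86 (median 9.06) on AL, a separated 12.1-fold rise (3.60, SE 0.39; adjusted p = 1.73e-07). The difference was -5.86 (SE 0.55; adjusted p = 6.56e-08), with its fat body side below background on DR. FBtr0087720, which led in fat body by level, was below background in fat body DR (5.40 to 6.36). It ran from 10.10 to 12.15 (median 11.26) in fat body AL, a fall of at least 14.5-fold. In gut it was above background on 0 of 6 DR and 1 of 6 AL arrays, so no gut change can be given for it beside its difference of -4.63 (SE 0.38; adjusted p = 1.09e-08).

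FBtr0087907, which also led in gut by level, had the next largest rise in gut after FBtr0082625 by the same rule. In fat body it ran from 8.38 to 10.38 (median 8.56) on DR and from 7.24 to 9.29 (median 8.54) on AL, with the pools overlapping. In gut every DR pool, at 11.51 to 12.22 (median 11.82), lay above the AL pools at 8.30 to 8.91 (median 8.63). The fat body value was 0.43 (SE 0.30; adjusted p = 0.271), the gut rise 9.40-fold (3.23, SE 0.30; adjusted p = 1.88e-08) and the difference -2.81 (SE 0.42; adjusted p = 3.27e-05).

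Of the transcripts with opposite signs, FBtr0073291 rose in fat body and fell in gut. It ran from 11.11 to 11.64 (median 11.39) in fat body DR, above the fat body AL pools at 10.10 to 10.82 (median 10.14). In gut its level ran from 6.67 to 7.63 (median 7.20) on DR, above background on 3 of 6 arrays, and below the AL pools at 8.43 to 8.95 (median 8.65). The change was 1.13 (SE 0.16; adjusted p = 4.46e-06) in fat body, and the gut fall, with the DR mean at background, was at least 2.74-fold (adjusted p = 1.97e-07). It fell in all 5 other tissues as well, by values from -1.44 in heart to -0.60 in muscle. FBtr0113405, which led in fat body by level, ran from 12.36 to 12.92 in fat body DR, against 11.83 to 12.16 in fat body AL. The gut pools ran from 6.57 to 7.10 on DR, above background on 1 of 6 arrays, against 8.43 to 8.88 on AL. Its fat body change was 0.65 (SE 0.10; adjusted p = 1.44e-05), and the gut fall, with the DR mean below background, was at least 2.78-fold (adjusted p = 2.81e-12). The fat body rise missed the threshold in the model of all 82 arrays (adjusted p = 0.112).

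The opposite pattern with the rise in gut was largest for FBtr0088928 and FBtr0081603, both above background on every array. FBtr0088928 ran from 9.04 to 9.96 (median 9.26) in fat body DR, against 10.15 to 11.49 (median 11.43) in fat body AL. Gut levels ran from 11.84 to 12.65 (median 12.19) on DR, against 10.10 to 10.96 (median 10.42) on AL. The changes were -1.82 (SE 0.22; adjusted p = 5.06e-07) in fat body and 1.70 (SE 0.22; adjusted p = 2.71e-06) in gut. In both tissues the DR and AL pools were separated. FBtr0081603, which led in tubule by level, fell by 1.58 in fat body (SE 0.23; adjusted p = 5.65e-06). It rose by 1.45 in gut (SE 0.23; adjusted p = 2.88e-05), with separated pools in both tissues.

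**Figure D3:**
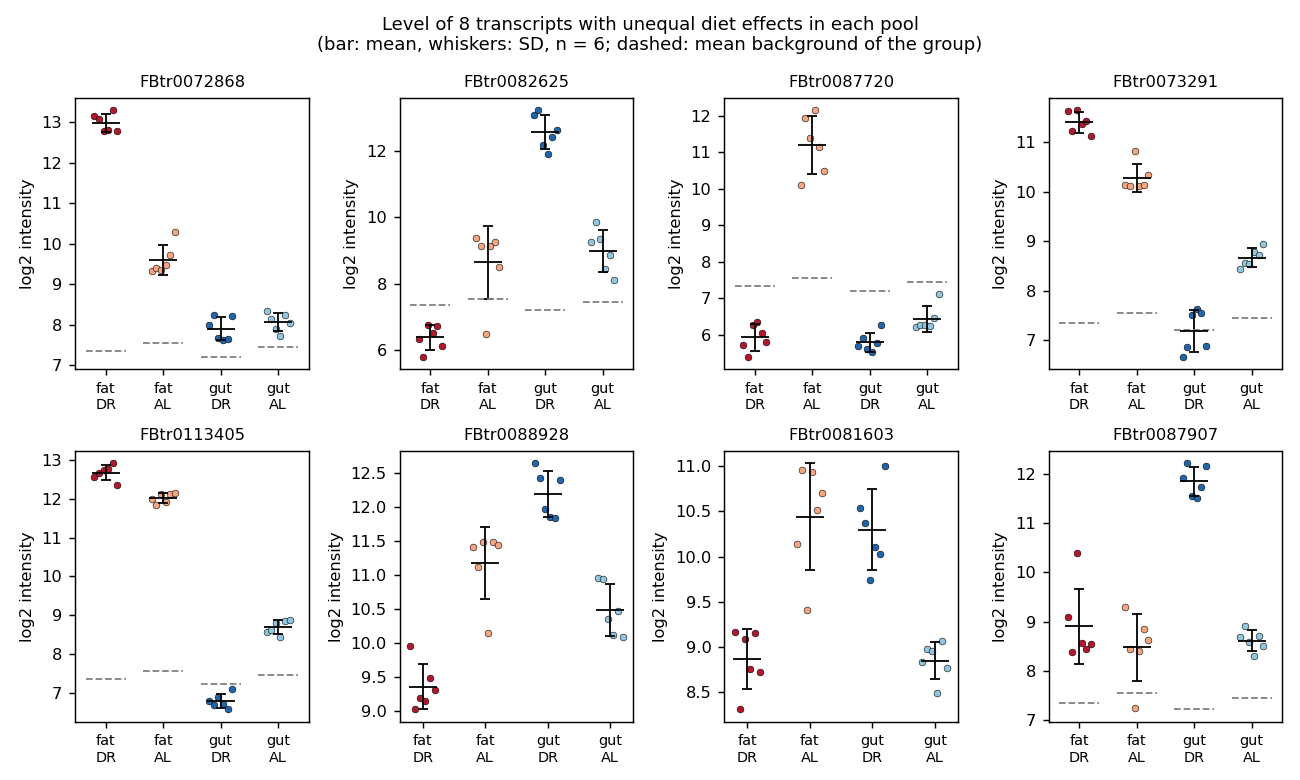
Levels (log2 intensity) of 8 unnamed transcripts in each pool, with fat body DR, fat body AL, gut DR and gut AL from left to right. Bars and whiskers are the mean and SD of 6 pools, and the dashed lines mark the mean background of each group. The foods are apart for FBtr0072868 in fat body and for FBtr0087907 in gut, each overlapping in the other tissue, and the fat body DR pools of FBtr0082625 and FBtr0087720 lie below background.

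Markers of other cell types could not be read by name, since none of the 70 listed marker symbols is paired with a transcript here. Transcripts that led in 1 tissue, with a mean over both foods at least 2-fold above each of the other 6 tissues on a quantile scale over all 82 arrays, stand in for them. These sets were chosen by level on the same arrays, so their counts are a description. Of the 242 that led in gut, 187 fell and 8 rose in fat body, with a median change of -1.04 (all transcripts 0.02), while in gut 57 rose and 68 fell, with a median of -0.05 (all transcripts 0.02). The difference passed for 183 of them, 6 higher and 177 lower, which is 75.6% beside 21.5% of all transcripts. They made up 177 of the 1523 lower calls (11.6%) and 118 of the 358 at least 2-fold lower ones (33.0%). Gut message in the fat body pulldown and message of the fat body itself cannot be told apart by these values, and the part of either in the falls was not tested.

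The mean level of the gut-leading transcripts on the shared scale ran from 9.82 to 10.43 (median 10.12) in fat body DR pools, against 10.75 to 11.40 (median 11.17) in fat body AL pools. The levels in gut pools ran from 12.02 to 12.46 (median 12.16) on DR and from 12.12 to 12.42 (median 12.21) on AL. The fat body pools were separated and the gut pools were not. Their summed intensity made up a median of 0.797% of the signal in fat body DR and 2.11% in fat body AL, beside 3.76% in gut DR and 3.99% in gut AL. On all arrays of the group, 32 of the 242 were at background in fat body DR, 20 in fat body AL, 3 in gut DR and none in gut AL. With all 242 left out the difference passed for 3374 transcripts, 2039 higher and 1335 lower. With the 1106 transcripts at least 2-fold higher in gut than in fat body left out it passed for 3162, 1953 higher and 1209 lower. Unlike the gut-leading set, these did not fall in fat body by their medians. With gut higher by 1 to 2, 2 to 3 and 3 or more (log2), the median fat body change was 0.17 (903 transcripts), 0.31 (156) and 0.35 (47). The difference was called lower for 28.7%, 25% and 27.7% of them, beside 9.15% of all transcripts. Leaving transcripts out mainly removes their own calls, so gut message among the remaining transcripts was not tested by it.

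Of the 422 transcripts leading in fat body, 217 rose and 51 fell in fat body (median 0.39), where 24.4% of all transcripts rose and 19.9% fell. In gut 95 of the 422 rose and 105 fell (median -0.01), where 21.8% of all transcripts rose and 21.4% fell. The difference passed for 199, 170 higher and 29 lower (47.2%). Their mean level on the shared scale ran from 12.54 to 12.89 (median 12.68) in fat body DR and from 12.25 to 12.58 (median 12.44) in fat body AL, which overlapped, and from 9.18 to 9.41 in gut DR and from 9.24 to 9.36 in gut AL. Of the transcripts leading in neuron, 239 of 462 rose and 10 fell in fat body, where 24.4% of all transcripts rose and 19.9% fell. In gut 297 of the 462 rose and 14 fell, where 21.8% of all transcripts rose and 21.4% fell. On every array of the group, 227 of the 462 were at background in fat body DR, 358 in fat body AL, 38 in gut DR and 82 in gut AL. The difference passed for 8.01% of that group, beside 21.5% of all transcripts. Those leading in germ line passed at 5.88%, in heart at 15.3%, in tubule at 16.3% and in muscle at 21.6%. At background on every array of the group were 180 in fat body DR and 274 in fat body AL of the 493 leading in germ line, 22 and 33 of the 72 in heart, 202 and 250 of the 551 in tubule, and 79 and 138 of the 481 in muscle, and dim transcripts passed less often, as given above.

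**Figure D4:**
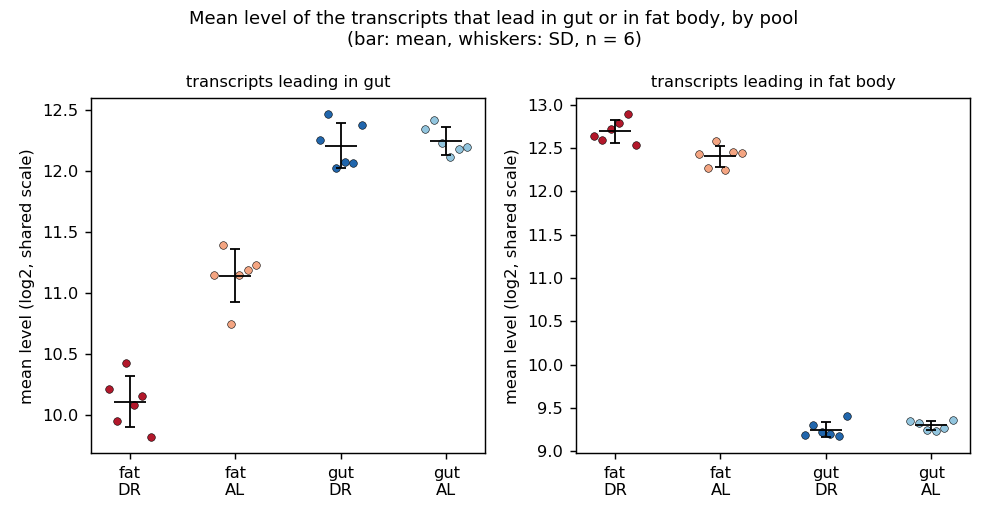
Mean level (log2, quantile scale over all 82 arrays) of the 242 transcripts that lead in gut and of the 422 that lead in fat body, for each pool of fat body DR, fat body AL, gut DR and gut AL from left to right, with the mean and SD of 6 pools. The gut-leading set is lower in every fat body DR pool than in every fat body AL pool, and overlaps between foods in gut.

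The arrays of the other 5 tissues were not used to choose the shared and the opposite transcripts, so their values there are given as a description from the model of all 82 arrays. Of the 2132 shared rises, the share that rose was 50.7% in germ line, 47.7% in heart, 44.7% in muscle, 69.6% in neuron and 68.1% in tubule. Among all transcripts these shares were 34.2%, 25.1%, 27.8%, 28.4% and 20.4%, in the same order of tissues. In that order 22.6%, 7.50%, 8.44%, 14.9% and 1.59% of the shared rises fell. Among all transcripts 36.8%, 27.1%, 27.3%, 37.6% and 19.4% fell. Of the 1842 shared falls, between 65.9% (heart) and 75.1% (neuron) fell in each of the 5 tissues. Of all transcripts 19.4% (tubule) to 37.6% (neuron) fell. Rises made up 1.85% (heart) to 8.74% (neuron) of the shared falls, and 20.4% (tubule) to 34.2% (germ line) of all transcripts. A rise in all 5 was found for 481 of the shared rises (22.6%, beside 4.14% of all transcripts). For 637 of the shared falls a fall in all 5 was found (34.6%, beside 6.78%). Detected in both fat body and gut were 77.3% of the shared rises and 91.9% of the shared falls, beside 63.4% of all transcripts. Dim transcripts passed less often in the test of the tissue difference, and the part of level in these shares was not tested.

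The opposite transcripts did not follow 1 tissue throughout. Of the 343 that rose in fat body and fell in gut, 66.5% fell in germ line, 39.1% in heart, 35.6% in muscle, 56.9% in neuron and 19.8% in tubule. The shares of all transcripts that fell were 36.8%, 27.1%, 27.3%, 37.6% and 19.4% in the same order, and the tubule share is near that of all transcripts. Those that rose made up 10.2%, 8.16%, 19.8%, 19.8% and 10.5% of the 343. Among all transcripts 34.2%, 25.1%, 27.8%, 28.4% and 20.4% rose, so rises were fewer among the 343 in each tissue, tubule included. Of the 200 that fell in fat body and rose in gut, 45.5% rose in neuron (28.4% of all transcripts) and 29.5% fell there (37.6%). In heart 11% rose (25.1%) and 31.5% fell (27.1%), in muscle 14.5% (27.8%) and 33% (27.3%), in germ line 27% (34.2%) and 38.5% (36.8%), and in tubule 21% (20.4%) and 15.5% (19.4%). Over the 3576 transcripts with a called difference, the change in germ line was nearer to that of gut than to that of fat body for 66.6% (60.6% of all transcripts). The corresponding values were 61.5% (57.9%) in heart, 59.3% (58.5%) in muscle, 64.1% (54.5%) in neuron and 63.3% (54.2%) in tubule.

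The named genes with a called difference varied across the other tissues as well. In neuron, mio (-0.42, SE 0.13; adjusted p = 0.00265) and Wdr24 (-0.79, SE 0.13; adjusted p = 1.63e-07) fell on DR, with the sign opposite to that of their fat body rise. Fatp1 rose in neuron by 1.44 (SE 0.16; adjusted p = 2.21e-12) and in tubule by 0.94 (SE 0.16; adjusted p = 5.64e-07) and passed in none of germ line, heart and muscle. Of the genes shared between fat body and gut, alpha-Spec also rose in heart (0.45), neuron (0.84) and tubule (0.76), whereas LanA fell in neuron by 1.12 (SE 0.25; adjusted p = 5.66e-05). Tests of these values against the fat body or gut change were not run.

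**Figure D5:**
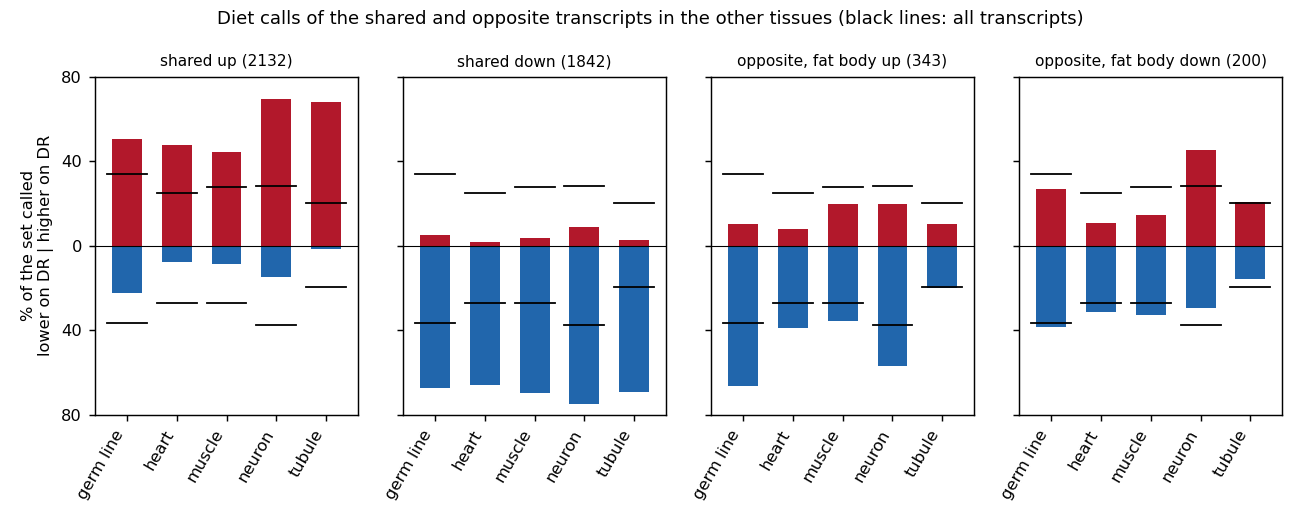
Percent of each set called higher on DR (red, upward) or lower on DR (blue, downward) in the 5 other tissues, for the shared rises, shared falls and both opposite sets, with black lines at the percent of all 16637 transcripts. The shared sets lie beyond the lines in their own direction in each tissue, and the opposite sets vary between tissues. The sets were not matched to all transcripts for level.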

How the data were processed

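Translating messages of fat body and gut were measured on single-colour Cy3 NimbleGen arrays, 1 pool per array, after pulldown of FLAG-tagged ribosomes and whole-transcriptome amplification, per the labels' protocols. The deposited values are linear probe intensities. Their sorted log2 values differ by at most 0.034 between fat body arrays and 0.0379 between gut arrays, and by up to 0.598 between the tissues, so they were normalized within each tissue before deposit. How the arrays were scanned and corrected for background, and the release of the transcript annotation, is not given in the sources used here. The number of arrays and the distance from the control probes limit the precision.

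The log2 intensities of a transcript's probes were averaged without further scaling, with the 4100 control probes left out. With limma 3.58.1 in R 4.3.3 (version 1.17.8 of data.table), a linear model with 4 group means was fitted to the 24 arrays (20 residual degrees of freedom), with two-sided moderated tests of each tissue's change, their mean and their difference, adjusted by Benjamini and Hochberg over 16637 transcripts at a threshold of 0.05. No transcript was left out. Exact permutation tests over pools (all labellings within a tissue, and their 853776 combinations for the difference) were used for array measures, adjusted over 9 tests. The model was run on simulated data as a check of the code, and no result here rests on that run. Where a group's mean was below the mean background of its arrays, a change is a bound, from the bright group's mean against the mean background of the dim group. Plots used matplotlib 3.10.9, pandas 2.3.3 and numpy 2.4.6 under Python 3.11.15.

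Names come from a RefSeq gene table (Release 6 plus ISO1 MT), where 16 of the 16637 transcripts have exactly 1 gene (14 with a symbol), 28 have several and 16593 have none. All 14 symbols are named. Of the others, at most 2 rises and 2 falls per comparison are named, the largest by log2 size among called transcripts with separated pools. Lists on ribosomal proteins, glycogen and sugar, digestion, mitochondria and immunity have no named member. The members, lists and tests were chosen with earlier results of these data known. Alternatives covered the arrays that give the spread, scaling, background correction, probe choice, filters, array weights, the position slope, a replicate block, a fold threshold and pools left out. Leaving out the pool farthest from each group's centre, gut DR pools 1 and 2, or transcripts at least 2-fold higher in gut was chosen after seeing the data.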

Additional observations from a re-analysis of the deposited data

Results flagged for a closer look

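The tissue difference of the diet change itself passed limma's test for 15 of the transcripts named. Among those with a symbol the differences (fat body minus gut, log2) were 0.7838 for mio, 0.6279 for Wdr24, 0.5678 for Fatp1 and 0.2037 for His4r. Among those without a name they were 3.557 for FBtr0072868, 3.416 for FBtr0077753, 2.609 for FBtr0073291, 2.544 for FBtr0113405 and 0.4672 for FBtr0082158. The negative ones, with the higher DR minus AL value in gut, were -5.864 for FBtr0082625, -4.634 for FBtr0087720, -3.523 for FBtr0088928, -3.022 for FBtr0081603, -2.808 for FBtr0087907 and -1.194 for FBtr0087522.

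A single pool lay far from the other 5 of its group in 8 of 120 groups tested (108 of a named transcript, which held all 8, and 12 of an array measure), by Dixon's 95% critical value of 0.625 for 6 samples, which chance exceeds in about 1 of 20 groups. FBtr0082625 was at 6.496 in fat body AL pool 3, below the rest of that group. FBtr0088928 was at 10.15 in fat body AL pool 4, below the rest, and rdx at 14.56 in the same pool, above the rest. FBtr0073291 was at 10.82 in fat body AL pool 3 and FBtr0087907 at 10.38 in fat body DR pool 3, both above their groups. In gut, mio was at 11.72 in DR pool 2, kis at 13.29 in AL pool 5 and FBtr0087720 at 7.116 in AL pool 6, each above its group.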

How the results depend on the processing

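The model of all 14 groups lowered the count of called differences to 2341 (1338 higher, 1003 lower) and that of opposite calls to 307. The cause was not tested. A fold threshold of 2 left 651 differences (293 higher, 358 lower), 465 shared and 18 opposite calls, 1314 calls in fat body and 844 in gut. The other counts stayed within 1.5 times under the alternatives run. With single pools left out, differences numbered 3300 to 3754 (1881 to 2147 higher, 1380 to 1607 lower), shared calls 3679 to 4091, opposite calls 480 to 627, fat body calls 6917 to 7572 and gut calls 6469 to 7581, and the correlation across transcripts was 0.603 to 0.63. Deviations from the group means of same-numbered pools correlated between 0.113 and 0.297 for fat body AL with gut AL, where 5 of 6 pools matched best by number. In the other 5 pairs of groups the lowest such correlation was below 0, so the number was not taken to pair the samples over the 4 groups. With pool number as a replicate block, 3669 differences (2129 higher, 1540 lower), 4080 shared and 569 opposite calls were made, and the gut change of Wdr24 passed as a fall (adjusted p = 0.0491).

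The difference of His4r ended under 5 of 12 alternatives beside single pools left out (adjusted p from 0.0177 to 0.349 over the 12), that of Fatp1 under 1 (up to 0.0738) and that of FBtr0082158 under 5 (0.00429 to 0.527). The difference of SuUR passed with the earlier probes (0.49) and the position slope (0.42), that of NaPi-III with array weights (-0.75), and that of FBtr0089326 with normexp (-0.55). The gut call of HDAC3 ended with the earlier probes (-0.18, adjusted p = 0.152) and with the position slope (-0.22, adjusted p = 0.0542), and its fat body call with the median of probes (-0.22, adjusted p = 0.0612). Those of SuUR and fend in gut ended with the median of probes (adjusted p = 0.0785 and 0.0642), and that of SuUR with the later probes too (-0.22, adjusted p = 0.236).

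Some differences that did not pass changed sign, and the cause was not tested. With the median of probes HDAC3 was 0.068, Uba1 0.091 and sle -0.030. With the later probes kis was -0.0057, rdx 0.053, sle -0.094 and FBtr0089324 -0.082. With array weights kis was -0.075 and sle -0.41. Without the farthest pools kis was -0.050 and sle -0.26, and without gut DR pools 1 and 2 they were -0.057 and -0.35. With the position slope rdx was 0.0087, and with normexp FBtr0089324 was -0.13. Quantile normalization over 24 and over 82 arrays gave 0.14 and 0.27 for FBtr0089326. With single pools left out kis ranged from -0.017 to 0.068, rdx from -0.12 to 0.038 and sle from -0.16 to 0.14. For transcripts below background in 1 tissue, the signal limits what a difference can show.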
